A study of Mus musculus with 8 samples.

Results

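Mitosis is the stage at which a cell separates its copied chromosomes, and 58 of its genes, out of 20141 genes named on the array, were followed here in 4T1 mouse tumours. The 4T1 line derives from a mammary carcinoma. The genes were listed by symbol, covering cyclins and Cdk1, mitotic kinases, the spindle checkpoint, centromeres and kinetochores, kinesins, cytokinesis, anaphase entry and condensin. Probes were assigned through the RefSeq accessions printed on the array design. The 58 genes had 76 of the 55681 non-control probes, and 57 of the 58 could be tested. The exception was Aurkb, the kinase of the chromosomal passenger complex, whose 1 probe was well above background on 0 of the 8 arrays.

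A total of 8 tumours, 4 a group, were compared on 1-colour (Cy3) Agilent arrays. Before injection, 4T1 cells in the control group had received an empty adenovirus and those in the other group an adenovirus carrying PRH, each at a multiplicity of 50 for 24 h. PRH is the homeodomain transcription factor encoded by Hhex. The cells went into the no. 3 fat pad of female BALB/c mice aged 6 to 8 weeks, and tumours were collected on day 22. Both groups share the cell line, the host strain and exposure to adenovirus, and the virus was given to the cells only before injection. Each group holds mouse numbers 1, 2, 3 and 5. The labels name whole tumours in one place and endothelial isolates in another. Markers of mammary epithelium and of endothelium were both above background (all 8 tested markers of each list), which alone does not tell these sources apart. The summed marker levels, described further below, were 302.8 to 481.6 for mammary epithelium over the 8 arrays. They were 286.8 to 422.8 for fibroblasts, 174.3 to 307.9 for macrophages and 9.05 to 28.4 for endothelium. Endothelium thus had the lowest sum of these lists on every array. Among the lists given below, skeletal muscle was lower still on every array, and B cells, T cells and adipocytes on most. The sums add different probes and do not rank cell types. Which source was hybridised was not tested.

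Cells enter mitosis when cyclin B binds and activates the kinase Cdk1, helped by Cdc25 phosphatases and by the Aurora and Polo kinases. Chromosomes are compacted by condensin, attach to spindle microtubules through kinetochores built on the centromeric histone Cenpa, and are held back from separating by a checkpoint until every kinetochore is attached. The checkpoint then releases Cdc20 and separase, and a ring of contractile proteins divides the cell. Most of these genes are transcribed only late in the cell cycle, so their RNA in a tumour is widely used as a readout of how many cells are dividing.

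Levels are given as log2 of the processed signal relative to the array's 75th percentile, so 0 is the level of the 75th percentile probe. That percentile was 1094 ± 131 on control arrays and 722.4 ± 41.2 on PRH arrays (mean ± SD, n = 4 each, exact two-sided permutation p = 0.0286, the smallest that 4 against 4 arrays can give). The share of probes well above background also differed, at 66.8% ± 2.30 on control and 73.2% ± 0.777 on PRH arrays (exact permutation p = 0.0286). All arrays lay on a single slide, and its barcode gives each array a pair of position numbers. The first number was 2 for control and 1 for PRH arrays, so the effects of position and of group cannot be told apart. Hhex itself was lower in the PRH group, at -0.58 ± 0.20 in control against -1.67 ± 0.14 (mean ± SD, n = 4 each). The difference of -1.09 had an SE of 0.149 and an adjusted p of 0.00686. The labels are therefore used as names alone, and the group is called PRH-labelled. Each library is 1 tumour, and the p-values measure only the spread between these tumours. In tumour RNA, fewer dividing cells and less RNA per cell cannot be told apart.

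One control tumour stood apart. Control 3 had the highest level of the 4 controls for 57 of the 57 tested mitosis genes, whereas over the 16395 tested named genes it was the highest control for 33.8%. It exceeded the mean of the other 3 controls by a median of 0.99 (range 0.41 to 1.39). Control 2 was the lowest control for 52 of the 57 genes, against 16.9% of named genes. The median level of the mitosis genes was 1.44 in control 1, 1.44 in control 2, 2.62 in control 3 and 1.86 in control 5. In the PRH-labelled tumours it was 1.16, 1.31, 1.21 and 1.13 for mouse numbers 1, 2, 3 and 5. Control 3 was thus far above the other 7 tumours. Measured gene by gene as the difference from the control mean, control 2 had a median of -0.51, within the -0.34 to -0.55 of the PRH-labelled tumours, while controls 1 and 5 lay above them at -0.15 and -0.06. The SD among controls was larger than that among PRH-labelled tumours for 57 of 57 mitosis genes (median SD 0.54 against 0.15) and for 69.8% of named genes (0.32 against 0.19). PRH 2 was the highest PRH-labelled tumour for 40 of the 57 genes and for 25.9% of named genes.

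**Figure D1:**
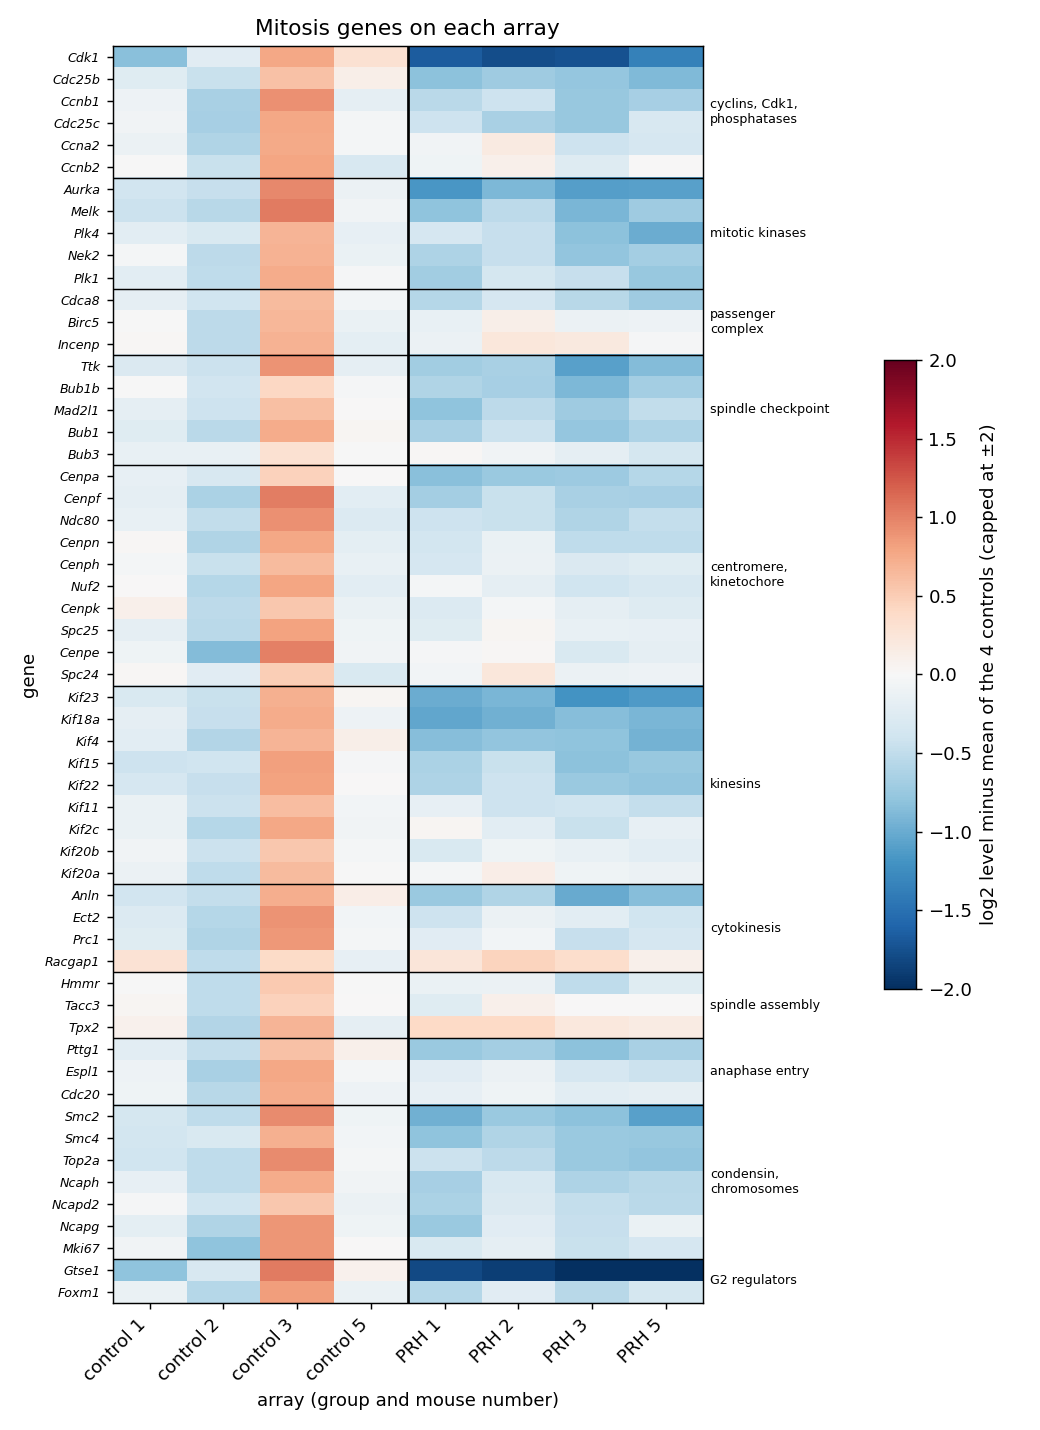
Heat map of the 57 tested mitosis genes (rows, grouped by role) on the 8 arrays (columns). Colour is the log2 level minus the mean of the 4 controls, with values beyond 2 drawn at the limit. The column of control 3 is red in every row, and Cdk1 and Gtse1 are the darkest rows in the PRH-labelled tumours.

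**Figure D2:**
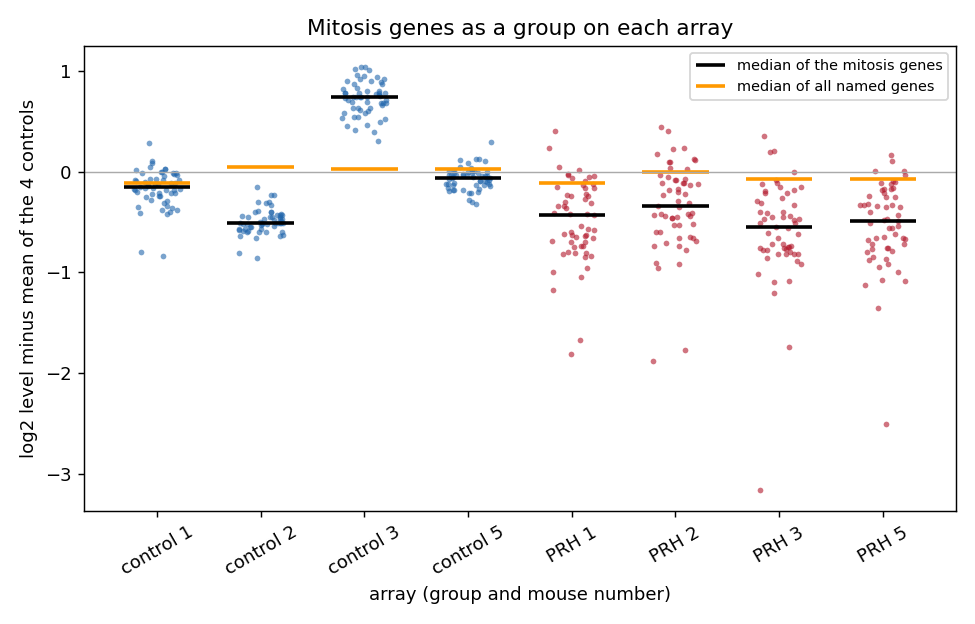
Each point is 1 of the 57 mitosis genes on 1 array, as log2 level minus the mean of the 4 controls. The black line is the median of these genes and the orange line the median of all named genes. Relative to the control mean, the mitosis genes had medians of 0.74 in control 3, -0.51 in control 2 and -0.34 to -0.55 in the PRH-labelled tumours.

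Mitosis genes read mostly lower in the PRH-labelled tumours, but few passed the test. Of 57 genes 54 had a negative difference, against 8441 of the 16395 named genes. With limma 9 mitosis genes fell and 0 rose (adjusted p under 0.05), and their median difference was -0.49. Of all 34568 tested items 8.67% fell and 17.2% rose, and of named genes 12.9% fell and 10.6% rose, with medians of 0.29 and -0.02. The share of mitosis genes that fell, 15.8%, was thus near that of named genes, while their median lay below it. The 2 groups did not overlap for 17 mitosis genes, 29.8%, each of them lower in the PRH-labelled tumours. Of named genes 17.1% showed this, and of all items 11.3%, with 13.4% and 20.1% not overlapping in the higher direction. Of the 17, 8 did not pass the test. Leaving out control 3 moved the median difference to -0.27, with 41 of 57 genes negative. Again 9 genes fell without it, 8 of them the same genes, against 8.52% of named genes. Smc2 replaced Kif4.

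Named genes of brightness bins 6 to 9 of 10 had negative median differences (-0.09 to -0.27) and those of bin 10 a positive one (0.05), and 49 of the 57 mitosis genes lay in the upper 4 of 10 brightness bins of all items. In those 4 bins the median difference was -0.38 for the mitosis genes and -0.13 for the 9609 named genes. There 46 of 49 mitosis genes and 5781 of 9609 named genes had a negative difference. The groups did not overlap, lower in the PRH-labelled tumours, for 12 of 49 and 1900 of 9609. By limma 7 of 49 and 1344 of 9609 fell. The part that brightness plays in the mitosis values was not tested. Compared by mouse number, 50 of 57 genes were lower in the PRH-labelled tumour for number 1, 18 for number 2, 57 for number 3 and 50 for number 5. Of named genes 48.7%, 51.4%, 50.3% and 52.7% were lower under these numbers. The median differences of the mitosis genes were -0.34, 0.16, -1.32 and -0.42. Mouse number 2 thus ran the other way, with control 2 the lowest control. For 18 mitosis genes the PRH-labelled tumour was lower under all 4 numbers. This holds by definition for the 17 whose groups did not overlap, so it adds little to that count. The share of named genes lower under all 4 numbers was not computed.

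**Figure D3:**
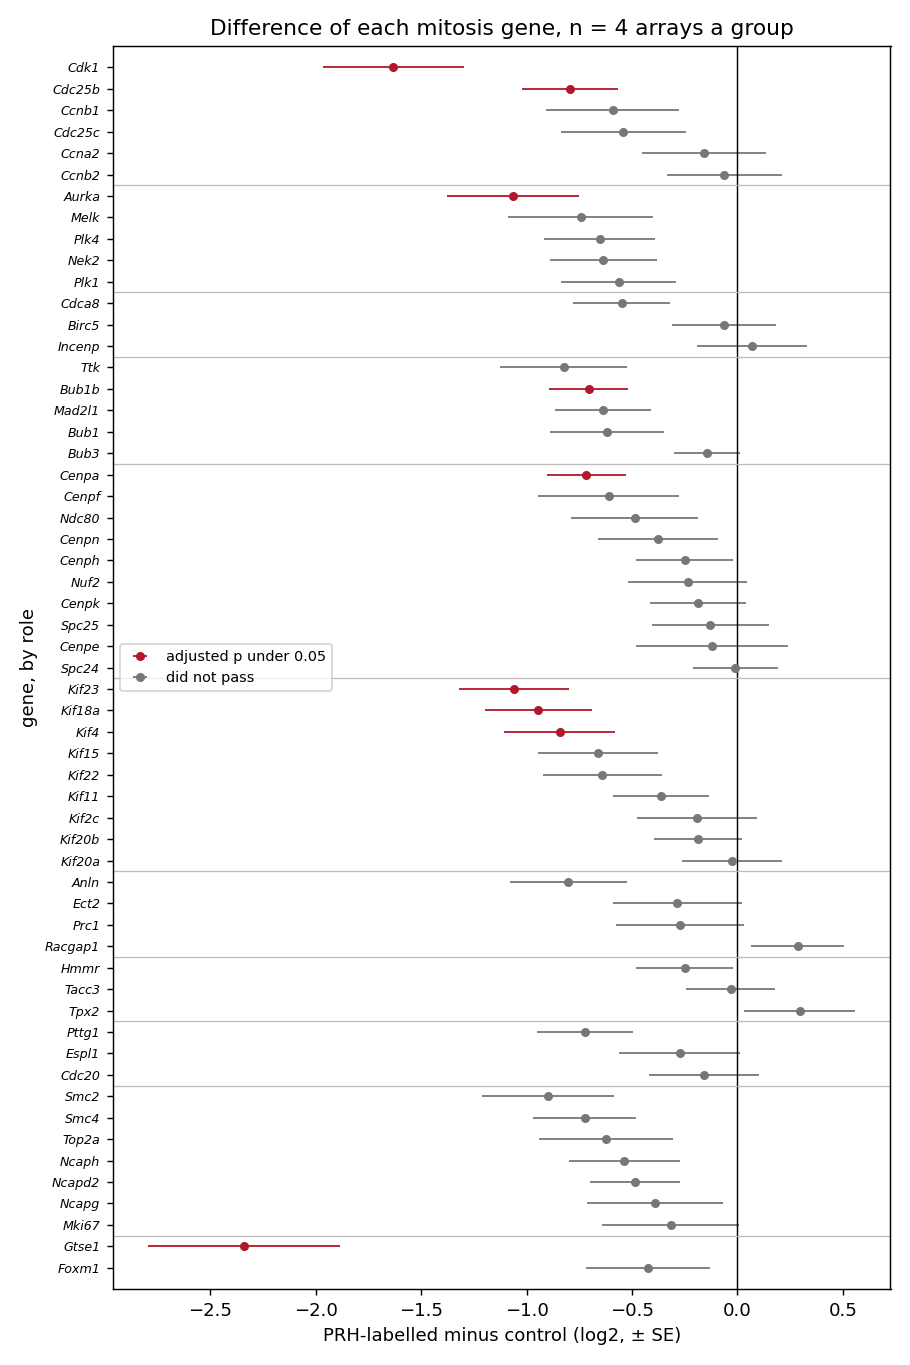
Difference of each tested mitosis gene, PRH-labelled minus control, on the log2 scale with its SE from limma (n = 4 arrays a group), ordered by role. Red points passed at an adjusted p under 0.05. The 9 red points lie between -0.71 and -2.34, and 3 of the 57 points lie to the right of 0.

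Among cyclins, Cdk1 and its phosphatases, Cdk1 and Cdc25b fell and the cyclins did not pass. Cdk1 is the kinase that drives entry into mitosis. It stood at 0.83, 1.44, 2.44 and 1.97 in controls 1, 2, 3 and 5, and at -0.0018, -0.10, -0.071 and 0.32 in the PRH-labelled tumours. Every control was above every PRH-labelled tumour, with a difference of -1.63 (SE 0.334, 3.1-fold lower, adjusted p = 0.0125). This is its brightest probe; with its 3 probes averaged the difference was -0.51 and did not pass (adjusted p = 0.349), and 1 of the others lay at 0.82. Cdc25b, which removes the inhibitory phosphates from Cdk1, stood at 1.73, 1.52, 2.56 and 2.09 in controls and at 1.16, 1.26, 1.21 and 1.09 in PRH-labelled tumours. These groups also did not overlap (difference -0.79, SE 0.228, adjusted p = 0.0386). The cyclins that activate Cdk1 differed by -0.59 (Ccnb1, SE 0.315), -0.06 (Ccnb2, SE 0.274) and -0.16 (Ccna2, SE 0.293). Cdc25c, a second activating phosphatase, differed by -0.54 (SE 0.295).

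The 5 mitotic kinases all had negative differences, from -0.56 to -1.07, and Aurka alone passed. Aurka, the Aurora kinase of the spindle poles, stood at 1.84, 1.75, 3.17 and 2.10 in controls and at 1.04, 1.31, 1.11 and 1.13 in PRH-labelled tumours. Its groups did not overlap and the difference was -1.07 (SE 0.312, adjusted p = 0.0412). With normexp background correction and in the authors' own values it did not pass (adjusted p = 0.0617 and 0.063). Plk4 starts centriole duplication. It stood at -0.89, -0.98, 0.00 and -0.85 in controls and at -1.02, -1.15, -1.50 and -1.67 in PRH-labelled tumours, again without overlap (difference -0.65, SE 0.264, adjusted p = 0.109). Plk1, the main Polo kinase of mitosis, differed by -0.56 (SE 0.272), the centrosome kinase Nek2 by -0.64 (SE 0.254) and Melk by -0.74 (SE 0.344).

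In the spindle checkpoint, which delays anaphase until chromosomes are attached, 1 of 5 genes fell. Bub1b, whose protein BubR1 is a part of the inhibitory checkpoint complex, stood at 1.40, 1.03, 1.83 and 1.39 in controls. In PRH-labelled tumours it stood at 0.81, 0.76, 0.52 and 0.74, all below the lowest control (difference -0.71, SE 0.187, adjusted p = 0.0291). With the mouse number as a block its adjusted p was 0.0519. Mad2l1, the checkpoint protein that binds Cdc20, did not overlap either. It stood at 2.00, 1.77, 2.79 and 2.19 in controls against 1.38, 1.66, 1.47 and 1.70 (difference -0.64, SE 0.228, adjusted p = 0.0786). The same held for Ttk, the kinase that recruits checkpoint proteins, at -2.0, -2.15, -0.82 and -1.90 in controls against -2.42, -2.36, -2.80 and -2.59 (difference -0.82, SE 0.301, adjusted p = 0.0822). Bub1, a kinase at the kinetochore, differed by -0.62 (SE 0.271) and Bub3, which brings Bub1 and BubR1 there, by -0.15 (SE 0.157).

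Of the 10 centromere and kinetochore genes, which build the attachment site of the chromosome, 1 fell. Cenpa, the histone H3 variant that marks centromeres, stood at 2.96, 2.81, 3.59 and 3.13 in controls and at 2.29, 2.38, 2.40 and 2.56 in PRH-labelled tumours. No value overlapped and the difference was -0.72 (SE 0.188, 1.64-fold, adjusted p = 0.0284). The 4 subunits of the Ndc80 complex, which grips microtubules, differed by -0.49 (Ndc80, SE 0.299), -0.24 (Nuf2, SE 0.282), -0.13 (Spc25, SE 0.278) and -0.0093 (Spc24, SE 0.202). Signs of Spc24 and Spc25 turned in other scalings. The kinetochore motor Cenpe differed by -0.12 (SE 0.361) and the large coiled-coil protein Cenpf by -0.61 (SE 0.335). Cenph, Cenpk and Cenpn, of the inner kinetochore, lay between -0.19 and -0.38. The whole group had a median of -0.24, above the median of -0.64 in checkpoint genes and of -0.64 in kinesins.

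Kinesins, the motors that move along spindle microtubules, held 3 of the 9 falls among 9 genes. Kif23, a subunit of the centralspindlin complex of the dividing cell's midzone, stood at 0.83, 0.68, 1.85 and 1.18 in controls. In PRH-labelled tumours it stood at 0.14, 0.22, -0.068 and 0.0075, with no overlap (difference -1.06, SE 0.259, adjusted p = 0.0223). Kif18a, which damps chromosome movements at the metaphase plate, stood at -1.13, -1.40, -0.20 and -1.06 against -1.99, -1.91, -1.80 and -1.87. No value overlapped (difference -0.94, SE 0.254, adjusted p = 0.0306). Kif4, a chromosome-bound motor, stood at -0.40, -0.77, 0.50 and -0.060 against -1.03, -0.96, -0.98 and -1.13 (difference -0.84, SE 0.262, adjusted p = 0.0497). Its value is at the threshold, and without control 3 its adjusted p was 0.0632. Kif15, a motor that helps keep spindle poles apart, stood at -0.99, -0.98, 0.23 and -0.60 against -1.22, -1.03, -1.40 and -1.34 (difference -0.66, SE 0.284, adjusted p = 0.128). The groups just failed to overlap. The other 5 motors, Kif22, Kif11, Kif2c, Kif20b and Kif20a, ranged from -0.64 to -0.03.

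Of the 3 tested genes of the chromosomal passenger complex, which corrects faulty attachments, none passed. Cdca8, encoding borealin, stood at 2.96, 2.74, 3.77 and 3.08 in controls and at 2.56, 2.80, 2.58 and 2.42 in PRH-labelled tumours (difference -0.55, SE 0.232, adjusted p = 0.122). PRH 2 lay above control 2. Incenp, the scaffold of the complex, differed by 0.07 (SE 0.260) and Birc5, encoding survivin, by -0.06 (SE 0.247).

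Cytokinesis and spindle assembly genes held 0 falls among 7 genes, and both of their positive differences came from genes with a second probe of the opposite sign. Anln, encoding the contractile ring protein anillin, was the exception in size. It stood at 3.69, 3.61, 4.81 and 4.20 in controls and at 3.33, 3.48, 3.06 and 3.23 in PRH-labelled tumours, without overlap (difference -0.80, SE 0.277, adjusted p = 0.0696). Ect2, which activates RhoA at the division site, differed by -0.28 (SE 0.308) and the midzone bundling protein Prc1 by -0.27 (SE 0.304). Tpx2, the activator of Aurora A at the spindle, stood at 2.12, 1.44, 2.71 and 1.86 in controls and at 2.44, 2.44, 2.24 and 2.20 in PRH-labelled tumours. The PRH-labelled values fall inside the control range (difference 0.30, SE 0.262, adjusted p = 0.426). Hmmr and Tacc3, which help organise spindle microtubules, differed by -0.25 (SE 0.229) and -0.03 (SE 0.212).

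For anaphase entry, Pttg1, encoding securin, stood at 3.63, 3.36, 4.43 and 3.94 in controls and at 3.1, 3.15, 3.03 and 3.19 in PRH-labelled tumours. It did not overlap but did not pass (difference -0.72, SE 0.229, adjusted p = 0.0534). Espl1, the separase that securin restrains, differed by -0.27 (SE 0.285) and Cdc20, the activator of the anaphase-promoting complex, by -0.16 (SE 0.260).

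Condensin and chromosome genes gave 7 negative differences and 0 calls. The 2 core ATPases of condensin did not overlap between groups. Smc2 stood at 1.41, 1.25, 2.71 and 1.67 in controls against 0.81, 1.02, 0.94 and 0.68 (difference -0.90, SE 0.314, adjusted p = 0.0728). Smc4 stood at 3.05, 3.11, 4.12 and 3.36 against 2.61, 2.82, 2.68 and 2.65 (difference -0.72, SE 0.245, adjusted p = 0.065). The condensin I subunits Ncapd2, Ncapg and Ncaph lay between -0.39 and -0.54. Top2a, the topoisomerase that untangles sister chromatids, differed by -0.62 (SE 0.319). Mki67, the gene of the Ki-67 proliferation marker, differed by -0.32 (SE 0.325, adjusted p = 0.492).

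Of the 2 regulators of the G2 phase, Gtse1 fell and Foxm1 did not pass. Gtse1, which encodes a microtubule-binding protein that also restrains p53, stood at -3.74, -3.27, -1.90 and -2.85 in controls. In PRH-labelled tumours it stood at -4.75, -4.82, -6.10 and -5.44, all below the controls (difference -2.34, SE 0.455, adjusted p = 0.0109). Its probe was well above background on 4 of 4 control arrays and 2 of 4 PRH-labelled arrays. Its measured difference exceeded that of Cdk1 at the 75th percentile scaling, but with normexp it was -1.19 against -1.52 for Cdk1, and it passed there too (adjusted p = 0.0143). Foxm1, a transcription factor that drives late cell cycle genes, differed by -0.42 (SE 0.292).

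Of the 9 calls, those of Cdk1 and Gtse1 held in all 8 fits that left out 1 array, with adjusted p up to 0.0393 and 0.0343, although averaging its probes ended the call of Cdk1. These 2 were the only calls left without control 5, PRH 1, PRH 3 or PRH 5, and without PRH 2 Kif23 passed as well (3 calls). Without control 1, control 2 or control 3 the count was 10, 10 and 9. The highest adjusted p without 1 array was 0.059 for Kif23, 0.0697 for Bub1b, 0.075 for Cenpa, 0.0769 for Kif18a, 0.0956 for Aurka, 0.0967 for Cdc25b and 0.116 for Kif4. With the mouse number as a block 7 genes passed, and Bub1b and Kif4 (adjusted p = 0.0508) did not. Gtse1 met the background filter through its 4 control arrays, with only 2 PRH-labelled arrays above background. The fit with probes above background on all 8 arrays therefore did not include it.

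Promoters of late cell cycle genes are known for CCAAT boxes, which bind NF-Y, and for a cell cycle homology region. The 250 bases before the start are shown for the 4 called genes with the smallest p. They are from RefSeq, build GRCm38.p6, 5′ to 3′ on the gene's strand. Capitals mark CCAAT or, on the other strand, ATTGG, and the homology region TTTGAA or TTCGAA, or TTCAAA for TTTGAA on the other strand.
Gtse1: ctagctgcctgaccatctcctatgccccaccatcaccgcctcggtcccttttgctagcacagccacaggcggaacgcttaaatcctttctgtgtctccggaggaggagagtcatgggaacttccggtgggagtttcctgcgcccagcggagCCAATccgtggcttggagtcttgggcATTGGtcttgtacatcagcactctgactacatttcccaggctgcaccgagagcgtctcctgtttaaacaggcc
Cdk1: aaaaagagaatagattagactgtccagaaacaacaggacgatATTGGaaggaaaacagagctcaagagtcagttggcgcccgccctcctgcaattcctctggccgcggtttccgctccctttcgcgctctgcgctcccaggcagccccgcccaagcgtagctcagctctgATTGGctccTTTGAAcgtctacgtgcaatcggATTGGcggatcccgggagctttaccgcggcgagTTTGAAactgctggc
Kif23: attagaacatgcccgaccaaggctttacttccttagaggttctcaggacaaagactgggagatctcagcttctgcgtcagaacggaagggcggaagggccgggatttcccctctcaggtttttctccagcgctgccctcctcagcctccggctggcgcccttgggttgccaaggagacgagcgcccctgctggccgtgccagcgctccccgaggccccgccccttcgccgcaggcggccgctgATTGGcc
Cenpa: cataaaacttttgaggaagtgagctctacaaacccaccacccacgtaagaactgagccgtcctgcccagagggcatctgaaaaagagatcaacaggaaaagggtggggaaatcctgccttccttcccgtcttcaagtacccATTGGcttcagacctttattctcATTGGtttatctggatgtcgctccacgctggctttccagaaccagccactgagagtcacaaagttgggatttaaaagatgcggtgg

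The Gtse1 stretch lies at chr15:85859457-85859706 on the plus strand and is the first of 2 starts listed for that gene. The Cdk1 stretch lies at chr10:69352913-69353162 on the minus strand, Kif23 at chr9:61946800-61947049 on the minus strand and Cenpa at chr5:30666636-30666885 on the plus strand. Cdk1 held 3 CCAAT letters and 2 of TTTGAA, Gtse1 and Cenpa 2 CCAAT letters each, and Kif23 1. Promoters were listed for 49 of the 58 mitosis genes, taking the first start of each. CCAAT was in 34 of these 49 (69.4%), in 8 of the 9 genes that fell, and in 34.5% of the 27025 genes in the table. TTTGAA or TTCGAA was in 17 of 49 (34.7%), in 2 of the 9 that fell (22.2%), and in 17.4% of the table. Both were in 15 of 49 (30.6%) and in 6.21% of the table. A match of letters is a description and is not a measured binding site.

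Several mitosis genes had more than 1 probe, and some of these differed in sign. Of 13 genes with more than 1 tested probe, 4 had probes of opposite sign, and over 74 tested probes taken singly 12 fell and 0 rose (16.2%, against 14.4% of named probes and 10.1% of all probes). The second Racgap1 probe stood at 1.07, 0.77, 1.80 and 1.29 in controls and at 0.34, 0.51, 0.54 and 0.25 in PRH-labelled tumours. The difference was -0.82 without overlap (SE 0.226, adjusted p = 0.0325). The brighter Racgap1 probe, for the other subunit of centralspindlin, differed by 0.29 (SE 0.220). Values of both Racgap1 probes were well above background on all 8 arrays. For Birc5, the brightest probe gave -0.06, while the other 2 gave -0.57 (SE 0.257) and -1.08 (SE 0.321, adjusted p = 0.0425). The last of these is assigned to the same transcript, NM_001012273, as the brightest, and the middle one to NM_009689. Mad2l1 had a dimmer probe that fell by 0.78 (SE 0.214, adjusted p = 0.0328), and another at -0.22 (SE 0.297).

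The Tpx2 probes gave 0.30 (NM_028109) and -0.89 (NM_001141977, SE 0.325, adjusted p = 0.0812), and the Incenp probes 0.07 and -0.52 (SE 0.244). A dim second Cdk1 probe stood at -3.75, -4.50, -3.36 and -4.16 in controls and at -2.78, -3.49, -2.89 and -3.29 in PRH-labelled tumours. It ran the other way, with a difference of 0.82 (SE 0.282, adjusted p = 0.0672). The third Cdk1 probe was well above background on 4 of 8 arrays and differed by -0.71 (SE 0.960). The Cdk1 fall is thus that of its brightest probe. The 3 Ccnb1 probes lay at -0.33 to -0.59 and the 2 Mki67 probes at -0.32 and -0.38, in the same direction. The second Nuf2 probe was above background on 0 of 8 arrays.

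**Figure D4:**
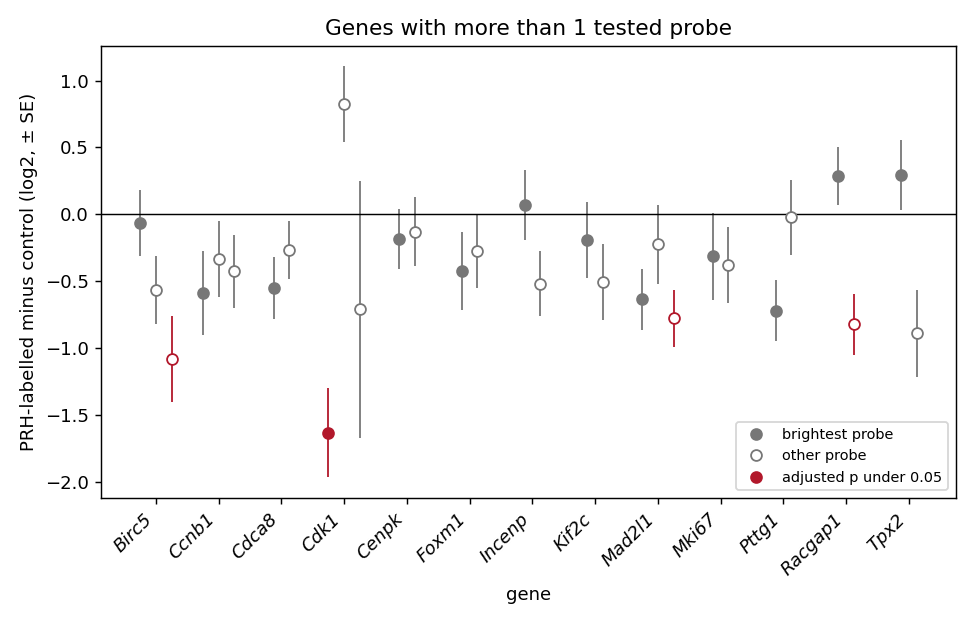
Difference, PRH-labelled minus control, on the log2 scale with its SE for each tested probe of the 13 genes that have more than 1. Filled points are the brightest probe of a gene and open points its other probes, with red for an adjusted p under 0.05. Racgap1, Tpx2, Incenp and Cdk1 have probes on both sides of 0.

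Of 116 other mitosis genes 113 were tested. In all, 21 fell (18.6%, against 12.9% of named genes) and 6 rose (5.31%, against 10.6%), with a median of -0.37. No difference between the groups of genes below was tested. Control 3 was the highest control for 91 of the 113. Of 13 genes of cohesin, the complex that holds sister chromatids together, and of its regulators, 4 fell and 0 rose. They were the cohesin subunits Stag1 (-1.06, SE 0.207, adjusted p = 0.0109) and Stag2 (-0.99, SE 0.152, adjusted p = 0.00718), the loader Nipbl (-1.03, SE 0.177, adjusted p = 0.00834) and the regulator Pds5b (-0.72, SE 0.138, adjusted p = 0.0103). Of 29 further kinetochore genes 7 fell and 0 rose. Among them were Knl1, the checkpoint scaffold (-1.05, SE 0.219, adjusted p = 0.0131), and Ska2, of a microtubule-binding complex (-1.91, SE 0.320, adjusted p = 0.00781). The Ska2 probe was well above background on 4 of 4 control arrays but only 1 of 4 PRH-labelled arrays, so the size of its difference is uncertain.

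Of 15 tested genes of the anaphase-promoting complex and its regulators, 4 rose and 1 fell. Those that rose, named after their values were seen, were Cdc27 (0.73), Anapc13 (0.68), Anapc2 (0.45) and Anapc7 (0.42). With the mouse number as a block Anapc2 and Anapc7 did not pass (adjusted p = 0.0515 and 0.0628). With probes averaged Cdc27 and Anapc7 did not (adjusted p = 0.144 and 0.296). After median centring 0 of the 113 genes rose and 67 fell, and Anapc2 and Anapc7 lay at -0.016 and -0.047. Leaving out control 2, control 5 or any PRH-labelled array ended the calls of Anapc2 (adjusted p up to 0.0802) and Anapc7 (up to 0.0927, also without control 3), while Cdc27 and Anapc13 passed in all 8 such fits. The gene that fell was Cdc23 (-1.12), which did not pass without control 2 or PRH 1 (adjusted p up to 0.0549). Of 33 spindle, centrosome and cytokinesis genes 4 fell and 2 rose. Cep192, which recruits material to the centrosome, differed by -1.33 (SE 0.195, adjusted p = 0.00691), Arhgap11a by -1.70 (SE 0.329, adjusted p = 0.0107) and Bora, an Aurora A activator, by -1.13 (SE 0.228, adjusted p = 0.0121). Sass6, a building block of centrioles, rose by 0.93 (SE 0.189, adjusted p = 0.0122), but not after median centring (0.47, adjusted p = 0.0731). The others, named after their values were seen, were Cep55 (0.84) and Kif2a (-0.66). Cep55 did not pass with probes averaged (0.083, adjusted p = 0.809) or in any of the other 4 scalings, and leaving out control 2, control 5 or any PRH-labelled array ended its call and that of Kif2a (adjusted p up to 0.123 and 0.104, Kif2a also without control 3). Of 23 condensin II and mitotic entry genes 5 fell (Rbl1, Wee1, E2f4, Ccnf and Arpp19, from -0.54 to -1.40) and 0 rose. These 5 were named after their values were seen. Leaving out control 5, PRH 1, PRH 3 or PRH 5 ended the call of each. The highest adjusted p among such fits was 0.0954. With probes averaged Rbl1 lay at -0.24 and did not pass (adjusted p = 0.383). It also did not pass in the authors' values, and Ccnf passed neither there nor with normexp. With no background filter Ccnf and Arpp19 did not pass.

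Markers of the cells a tumour can hold also differed between tumours. Summed over 8 mammary epithelial markers, the level relative to the 75th percentile was 302.8 to 382.3 in controls and 393.7 to 481.6 in PRH-labelled tumours, without overlap, and 1 of the 8 rose. That marker was Krt18, the brightest of them (0.52, SE 0.136, adjusted p = 0.0274). Krt8 lay at 5.63 in controls and 5.19 in PRH-labelled tumours, lower without overlap (-0.44, SE 0.158, adjusted p = 0.0793). The remaining markers of this list overlapped between the groups. The sum adds linear levels, so Krt18 weighs most in it. A sum without Krt18 was not computed, so the sums do not show a difference in mammary epithelium apart from that marker. Control 3, highest in mitosis genes, had the lowest sum of the 8 tumours for mammary epithelium (302.8), endothelium (9.05), neutrophils (31.3), adipocytes (3.77), skeletal muscle (2.07) and keratinocytes (8.9). It had the highest sum for fibroblasts (422.8) and macrophages (307.9). Of the other lists, keratinocytes had 2 of 8 higher, with sums of 8.9 to 48.3 in controls and 31.4 to 137.3 in PRH-labelled tumours. Fibroblasts had 2 of 8 lower (288 to 422.8 against 286.8 to 365), macrophages 1 of 7 lower (194.8 to 307.9 against 174.3 to 254.8), and neutrophils 1 higher and 1 lower of 7 (31.3 to 177.7 against 89.4 to 135.3). Endothelium and skeletal muscle had 1 of 8 higher each (9.05 to 24.2 against 21.8 to 28.4, and 2.07 to 16.6 against 4.59 to 8.84). T cells, B cells and adipocytes had 0 called of 7, 7 and 8 by limma. T cell sums were 11.7 to 25.4 against 15.2 to 20.8, and adipocyte sums 3.77 to 98.4 against 8.89 to 13.1. The B cell sum was 26.0 in control 1 and 0.54 to 1.21 in the other 7 tumours. The part of these cell types in the mitosis values was not tested.

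How the arrays were scaled changed the number of calls but not which side of the other genes the mitosis genes lay on. Their median difference was -0.49 relative to the 75th percentile and -0.95 relative to the array median. Quantile-normalized values gave -0.47, normexp -0.41, and the authors' table -0.42. In the same order, the median of named genes was -0.02, -0.49, -0.09, -0.07 and -0.08, and that of all items 0.29, -0.18, 0.07, 0.06 and 0.06. The median of the mitosis genes minus that of named genes was thus -0.47, -0.47, -0.38, -0.35 and -0.34. The 75th percentile and median scalings differ only by a constant on each array, so their values here are the same by construction. Genes called lower numbered 9, 30, 11, 13 and 12, against 12.9%, 32.5%, 17%, 17.6% and 17.3% of named genes. Of the 9 calls, 8 held in all 5 scalings, and 51 of the 57 genes were negative in all 5.

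**Figure D5:**
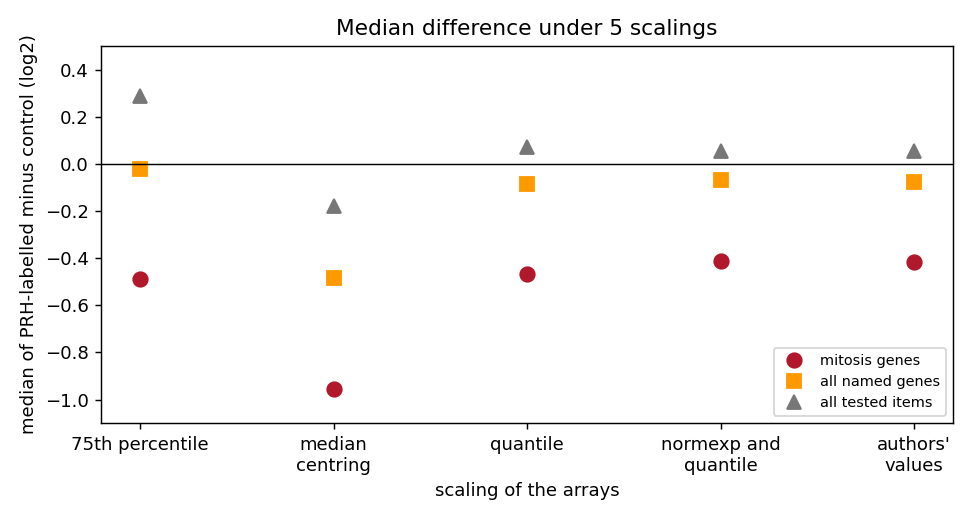
Median of the log2 differences, PRH-labelled minus control, over the 57 mitosis genes (red circles), all named genes (orange squares) and all tested items (grey triangles) under 5 scalings of the arrays. The red circles lie at -0.41 to -0.95, below the orange squares in each scaling.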

How the data were processed

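The deposited scanner intensities carry Feature Extraction 10.7.3.1 in their headers, with a design on mm9; 9.1 stands in the submitters' processing notes. Processed signals are intensities from which that software removed background, per the file headers. The authors' table holds linear intensities normalised in R, per the series' design text in the labels, with method and offset not given in the sources used here. Its medians were 123.4 to 125.1, its highest value was the same on all 8 arrays, and its rank correlation with scanner values was 0.989 to 0.995.

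Control spots were left out, and so was an outlier spot where its probe had others. Log2 processed signals were centred on each array's 75th percentile and averaged over a probe's spots. Probes well above background on at least 4 of 8 arrays were tested (39489 probes). A gene was represented by its brightest probe, giving 34568 items with 16395 named genes. Curated RefSeq mRNA accessions stood on 26392 probes, and 25863 of them matched the RefSeq table of GRCm38.p6, used for names and for promoters. No spot was saturated, and 64.2% to 69.8% of probes on control arrays and 72.3% to 73.9% on PRH arrays were well above background. The number of arrays limits the precision.

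Differences between groups came from limma 3.58.1 under R 4.3.3 (lmFit, eBayes, group alone, two-sided, Benjamini-Hochberg over all items, threshold 0.05). The fit was also run on simulated data, with independent genes and the same SD in both groups. That run does not check the fit under the unequal SDs and shared shifts seen here. Array measures were compared with exact permutation tests (scipy 1.17.1). The files hold no mean spot signal, so normexp (offset 50) used the median spot signal, followed by quantile normalization. Deviations of same-numbered arrays correlated at 0.203, 0.436, 0.665 and 0.273 for mouse numbers 1, 2, 3 and 5. All exceeded 0.1, the minimum used to treat the numbers as pairing the tumours. Same-numbered arrays also shared the second position number on the slide, so the effects of mouse number and of that position cannot be told apart. The main fit did not use the pairing. A block by mouse number is given where it changed the call of a named gene. The mitosis genes, the other lists and the tests were chosen with earlier results of these data known. Given in full are genes that passed or did not overlap, and the smallest p of each role group. Of the other mitosis genes, the 10 with the smallest p are given with their SE. Further called genes were named after their values were seen. The kinetochore genes Hjurp, Spdl1, Mis12, Cenpw and Cenpu also fell and are given above only in the count.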

Additional observations from a re-analysis of the deposited data

Results flagged for a closer look

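In 4 of 136 groups of 4 arrays 1 tumour lay far from the other 3 (Dixon's test at its 95% critical value), and chance alone gives about 5% of groups. Plk4 stood at 0 in control 3 and at -0.98 to -0.85 in the other controls. Cenpf stood at -3.55 in PRH 2 and at -3.79 to -3.76 in the other PRH-labelled tumours. Spc24 stood at 0.95 in PRH 2 and at 0.61 to 0.67 in the others. The cohesin gene Stag1 stood at 0.96 in control 1 and at 1.70 to 1.82 in the other controls. Control 3 was the highest control for all 57 tested mitosis genes and lay far apart by this measure for 1 of them. The groups share their arrays and are not independent.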

How the results depend on the processing

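Under the 16 alternatives the number of mitosis genes that fell went from 2 to 30, and 0 rose in any of them. It was 30 after median centring, where the median difference was -0.95, and 2 to 10 without single arrays. Other mitosis genes that passed numbered 67 after median centring and 16 to 39 without single arrays, and all items 5736 (without PRH 1) to 11489 (without control 1), with 5819 and 5778 without control 2 and control 5. The fits with no filter, with probes above background on all 8 arrays and with a gene's probes averaged called 6, 10 and 7 mitosis genes. The replicate block called 7 mitosis genes, 28 other mitosis genes (24 of the 27 called without it) and 12245 items, and among the 58 listed genes changed only the calls of Bub1b and Kif4. Hhex passed in every alternative. Signs that turned belonged to genes with small differences. Incenp was at -0.40 and -0.22, Racgap1 at -0.18 and -0.27 and Tpx2 at -0.17 and -0.30 after median centring and with the mean of their probes. Anapc2 and Anapc7 were at -0.0157 and -0.0469 after median centring. Spc24 was at 0.067, 0.10 and 0.10 and Kif20a at 0.085, 0.20 and 0.20 in quantile-normalized, normexp and the authors' values, and Spc25 at 0.073 and 0.072 in the last 2. Without single arrays the range was -0.36 to 0.093 for Ccna2, -0.21 to 0.20 for Ccnb2, -0.10 to 0.30 for Incenp, -0.24 to 0.16 for Birc5, -0.41 to 0.22 for Cenpe, -0.42 to 0.026 for Nuf2, -0.11 to 0.16 for Spc24, -0.31 to 0.14 for Spc25, -0.38 to 0.068 for Kif2c, -0.20 to 0.19 for Kif20a, -0.48 to 0.016 for Ect2, -0.47 to 0.018 for Prc1, -0.20 to 0.12 for Tacc3 and -0.34 to 0.089 for Cdc20. Each of these positive ends came without control 3, and the negative value of Incenp without control 2. The median difference ran from -0.65 (without control 2) to -0.27 (without control 3). The cause of these changes was not tested. Signal near background limits Gtse1, and Aurkb could not be measured.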
